A study of Gallus gallus with 6 samples.

Results

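Natriuretic peptide, ANKRD1, HBEGF, CSRP3 and ACTA1 are genes that heart muscle is known to use when it is stretched or has to pump against a higher pressure. They were taken from the deposited expression values of chick embryonic heart by gene symbol, and all 5 genes were found, with 1 transcript row each, among 6919 transcript rows of 6542 gene symbols. RNA was sequenced from whole hearts of Dekalb white chick embryos at Hamburger-Hamilton stage (HH) 29. In 3 OFT-banded embryos a nylon suture had been tied around the outflow tract (OFT) at HH21, and it stayed in place until harvest. The OFT is the segment of the heart through which the embryonic ventricle empties. In 3 sham embryos the suture was passed through and taken out at once. Each library came from a single heart with all its chambers and cell types, and globin transcripts were depleted from the RNA of both groups, so fewer cells of a type and less RNA per cell cannot be told apart in these values. The deposited values name the OFT-banded hearts 6, 11 and 17 and the sham hearts 38, 48 and 42, and these names are used below.

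Banding narrows the exit of the heart, so that the ventricle has to develop more pressure and its wall is put under more tension. Stretch of cardiac muscle is sensed in part at the Z-disc, where the thin filaments of neighbouring sarcomeres are anchored, and at the titin filament, and the signal is passed to the nucleus through factors such as SRF, MRTF and the YAP and TEAD proteins. In mammalian hearts the classical answers to load are secretion of natriuretic peptides, a rise of ankyrin repeat and LIM domain proteins that move between sarcomere and nucleus, release of growth factors of the EGF family, and renewed use of skeletal alpha-actin beside the cardiac form. In an embryonic heart several of these genes are already active as part of normal development.

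Levels are given as RPKM, which is a read count divided by transcript length in kilobases and by the library's reads in units of 1000000. As a measure of the depth behind them, the whole-read steps between low values of microRNA rows showed that 1 RPKM stood for between 21.2 reads per kilobase of transcript in heart 42 and 41.2 in heart 11. HBEGF, the least abundant of the genes, therefore rested on 86.0 to 442 reads per kilobase in a heart, ANKRD1 on 247 to 7139, and the other genes on at least 21402. For a transcript of 1 kilobase the counting error would be at most 10.8% of the value for HBEGF and 6.37% for ANKRD1. Of 12 cardiomyocyte markers looked up, 10 were found, each above 100 RPKM in every heart, and their geometric mean lay between 896 RPKM in heart 42 and 1059 RPKM in heart 17. Red cell marker RNA, as left after globin depletion, differed more between hearts. The summed level of the markers was 6211 to 12299.5 RPKM in the OFT-banded hearts and 16387 to 41890.5 RPKM in the sham hearts, highest in heart 42. Most of this sum was the globin HBE, at 5303 to 10572 RPKM in OFT-banded and 14107 to 36922 RPKM in sham hearts. HBE is not named among the globins that the depletion targeted, while HBG1 is. Red cell RNA and what the depletion left cannot be told apart in this sum. The mean log2 level of the 9 tested red cell markers overlapped, at 4.82 to 5.91 in OFT-banded and 5.48 to 7.21 in sham hearts. By log2 fold change 8 of the 9 were lower in OFT-banded hearts and 1, CA2, was higher. Heart 6 held the lowest value of the 6 hearts in 42.2% of the 4726 transcripts with a mean of at least 1 RPKM, and heart 42 the highest in 36.0%. Heart 17 was the highest of the 6 hearts in 10.4% of them and the highest of the OFT-banded hearts in 34.0%, and it was both for all 5 genes, so results are also given without it. P-values treat the hearts of a group as replicates.

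**Figure D1:**
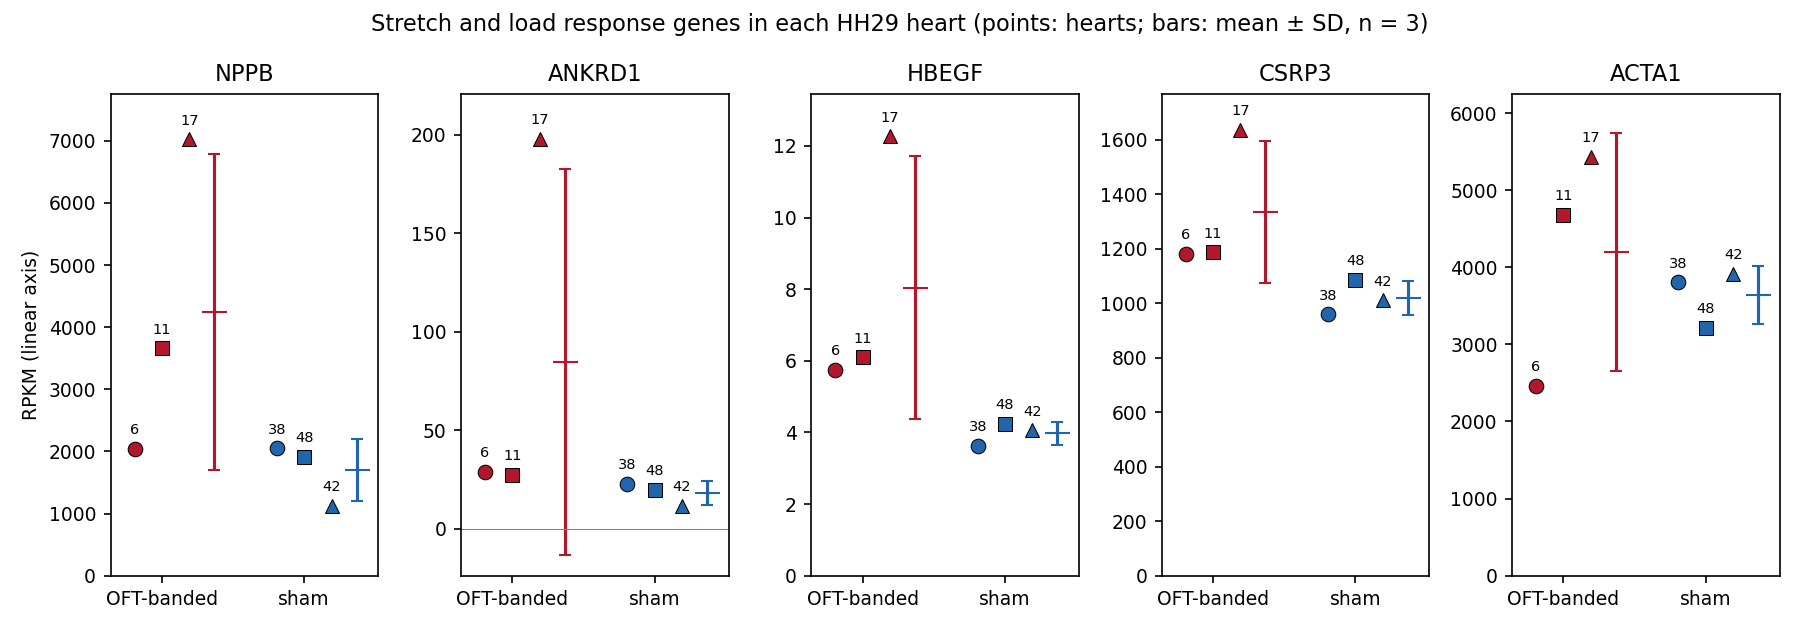
RPKM (linear axes) of NPPB, ANKRD1, HBEGF, CSRP3 and ACTA1 in each heart, OFT-banded in red and sham in blue, with the heart's name above each point and the mean ± SD of 3 hearts beside the points. Heart 17 is the highest of the 6 hearts in each panel, from 5434 against at most 4682 RPKM for ACTA1 to 198 against at most 29.1 RPKM for ANKRD1.

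The natriuretic peptide row carries the symbol NPPB, B-type natriuretic peptide, a hormone made by heart muscle that lowers blood pressure and blood volume in the adult. The accession of this row (NM_204925) stands in the RefSeq annotation of the later assembly GRCg7b as NPPA, the atrial natriuretic peptide gene, with NPPB as a synonym, so which of these peptides the row should be named for depends on the annotation. The row was at 2038 RPKM in heart 6, 3662 in heart 11 and 7027 in heart 17, and at 2053, 1916 and 1124 RPKM in the sham hearts 38, 48 and 42. Hearts 11 and 17 were above every sham heart, while heart 6 fell just short of heart 38, so the groups overlapped by this single pair. The mean was 4242 ± 2544 RPKM (SD, n = 3) in OFT-banded and 1698 ± 501 RPKM (SD, n = 3) in sham hearts, so that the OFT-banded mean was 2.499 times the sham mean. On the log2(RPKM + 1) scale, used for every log2 fold change here, while plain folds are ratios of RPKM, limma estimated a difference of 1.19 with a standard error of 0.44 (adjusted p = 0.543 over all tested transcripts and unadjusted p = 0.0312), and without heart 17 it was 0.73. With median-ratio scaling between hearts the groups parted, at 2193 in heart 6 against 2071 in heart 38, and when the values of every heart were made to add up to a common total they again overlapped.

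ANKRD1 (NM_204405), also known as CARP, is an ankyrin repeat protein that binds titin in the sarcomere and acts as a transcriptional cofactor in the nucleus. It was at 29.1 RPKM in heart 6, 27.4 in heart 11 and 198 in heart 17, against 23.1, 19.9 and 11.7 RPKM in hearts 38, 48 and 42. All OFT-banded hearts lay above all sham hearts, but hearts 6 and 11 stood close to heart 38, and heart 17 was 6.80-fold above the next heart and 10.9-fold above the sham mean. Among all 4726 tested transcripts, ANKRD1 had the widest gap between heart 17 and the next heart, at 2.72 on the log2(RPKM + 1) scale. The means were 84.8 ± 98.0 RPKM in OFT-banded and 18.2 ± 5.90 RPKM in sham hearts (SD, n = 3 each). The OFT-banded SD was thus larger than the mean itself. The log2 fold change was 1.58, the largest of the 5 genes, with a standard error of 0.73 and a 95% interval of -0.13 to 3.29 (unadjusted p = 0.0651, adjusted p = 0.543 from limma). Without heart 17 it was 0.66, and hearts 6 and 11 together were 1.55-fold above the sham mean.

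HBEGF (NM_204849), heparin-binding EGF-like growth factor, is made as a membrane protein and released by metalloproteases to act on EGF receptors. Its levels were 5.75, 6.10 and 12.3 RPKM in hearts 6, 11 and 17 and 3.62, 4.24 and 4.06 RPKM in hearts 38, 48 and 42. The groups did not overlap, and the sham hearts lay close together, with a coefficient of variation of 8.03%. For a transcript of 1 kilobase the counting error would be 9.21% in heart 38, 7.93% in heart 48 and 10.8% in heart 42. The length of the HBEGF transcript did not enter these values. The means were 8.04 ± 3.67 and 3.97 ± 0.319 RPKM (SD, n = 3 each), a 2.02-fold difference. The log2 fold change of 0.79 had a standard error of 0.27 (unadjusted p = 0.0215, the smallest of the 5 genes, and adjusted p = 0.543 from limma), and was 0.48 without heart 17. Hearts 6 and 11 alone were 1.49-fold above the sham mean.

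CSRP3 (NM_001199486), the muscle LIM protein, is a Z-disc protein whose loss in mice leads to dilated cardiomyopathy. It was at 1182, 1187 and 1636 RPKM in hearts 6, 11 and 17 and at 960 in heart 38, 1087 in heart 48 and 1011 in heart 42. Again no OFT-banded heart fell among the sham hearts, although the distance between heart 6 and heart 48 was small. The means were 1335 ± 261 and 1019 ± 63.9 RPKM (SD, n = 3 each), a ratio of 1.31. This was a log2 fold change of 0.37 with a standard error of 0.14 (limma, adjusted p = 0.543, unadjusted p = 0.0332), and 0.22 without heart 17. The separation of the groups depended on the scale, since heart 6 came to 1514 and heart 48 to 1524 when the values of a heart were made to add up to 1000000 (TPM).

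ACTA1 (NM_001031063), skeletal alpha-actin, belongs to the thin filament and is used together with cardiac alpha-actin in the young heart. Heart 6 was the lowest of all, at 2464 RPKM, and hearts 11 and 17 were the highest, at 4682 and 5434 RPKM, with the sham hearts 38, 48 and 42 in between at 3808, 3216 and 3912 RPKM. The groups overlapped, with means of 4193 ± 1544 and 3646 ± 375 RPKM (SD, n = 3 each). The estimated log2 fold change was 0.13 (standard error 0.28, 95% interval -0.54 to 0.80, adjusted p = 0.858 from limma), which leaves room for a difference in either direction. It was -0.10 without heart 17 and 0.47 without heart 6. The alpha-actins are nearly identical as proteins, and only uniquely mapped reads were counted. Whether this affected the split of reads between them was not examined.

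ACTC1, the cardiac alpha-actin and the main sarcomeric actin of the heart, was at 14007, 16836 and 19029 RPKM in hearts 6, 11 and 17 and at 14507, 13884 and 12174 RPKM in hearts 38, 48 and 42. ACTA1 came to 17.6%, 27.8% and 28.6% of the ACTC1 level in the OFT-banded hearts and to 26.2%, 23.2% and 32.1% in the sham hearts. The log2 ratio of ACTA1 to ACTC1 was -2.05 ± 0.393 against -1.89 ± 0.238 in sham hearts (SD over 3 hearts). A two-sided exact permutation test gave p = 0.7, and its difference between groups, -0.16, turned to 0.065 without heart 6. Markers of skeletal muscle were looked up beside ACTA1, since it is also the actin of that tissue. Of 17 such markers 14 were found. MYF5 and CHRND were listed at 0 in every heart, and the other regulators and receptor subunits were low, with MYOD1 at no more than 0.66, MYOG 0.68, PAX7 0.14, MYF6 1.13 and CHRNA1 1.00 RPKM. TNNT3 and TNNI2 reached 4.52 and 3.99 RPKM, and CKM, muscle creatine kinase, lay between 24.3 and 96.3 RPKM. Of the 6 tested genes of that list, 4 had a higher mean log2 level after banding, and TNNC2, MYL1 and PVALB lay above every sham heart in every OFT-banded heart (5.23% of all tested transcripts) with an unadjusted p under 0.05 from limma (3.28%). CKM and TNNI2 had lower means, at 0.717 and 0.712 of the sham mean, and TNNT3 overlapped. The summed level of the list was 1832 to 2238 RPKM in OFT-banded and 1162 to 1429 RPKM in sham hearts, mostly from MYL1 and TNNC2. Whether these genes have a part in the ACTA1 values was not tested.

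**Figure D2:**
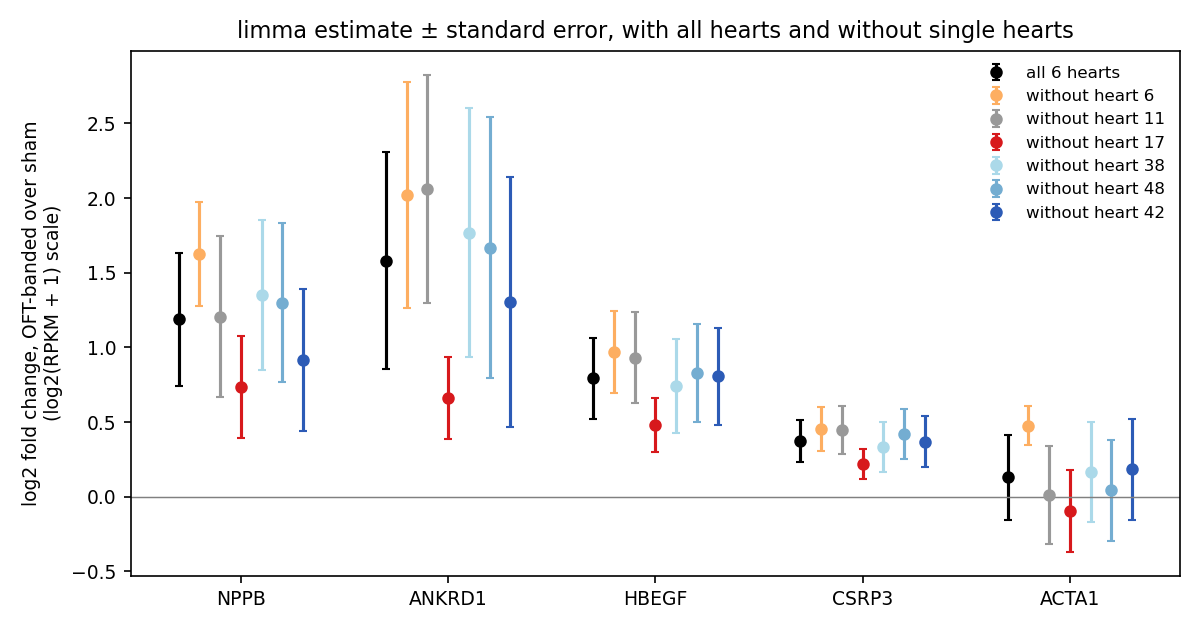
Log2 fold change of each gene between OFT-banded and sham hearts on the log2(RPKM + 1) scale, as estimated by limma with its standard error, for all 6 hearts and with each heart left out in turn. Leaving out heart 17 gives the lowest estimate for each gene, 0.73 for NPPB, 0.66 for ANKRD1, 0.48 for HBEGF, 0.22 for CSRP3 and -0.10 for ACTA1.

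None of the 5 genes passed the adjusted threshold of 0.05 in limma, and the same held for every one of the 4726 tested transcripts (0.0%). This holds for limma on the RPKM values only. The study's own test, DESeq, did call genes at a corrected p under 0.05, TNNC2, PVALB and MYL1 among them. None of the 5 genes is among those it lists. With an unadjusted p under 0.05, 3 of the 5 were higher in OFT-banded hearts (NPPB, HBEGF and CSRP3), against 3.28% of all tested transcripts, and none was lower, against 5.29%. The groups did not overlap, with OFT-banded higher, in 3 of the 5 (ANKRD1, HBEGF and CSRP3), against 5.23% of all tested transcripts. By value all 5 were higher, where 36.8% of the tested transcripts were. The median log2 fold change of the 5 genes was 0.79 and that of all tested transcripts was -0.07. The exact two-sided permutation test gave p = 0.1 for ANKRD1, HBEGF and CSRP3, the smallest that 3 hearts against 3 can give, p = 0.2 for NPPB and p = 0.8 for ACTA1. Without heart 17 the count of genes with no overlap was still 3 of 5, against 9.75% of tested transcripts. Without heart 6 it was 5 of 5, against 11.0%.

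To set these genes against the amount of heart muscle RNA, each was divided within its own heart by the geometric mean of the 10 cardiomyocyte markers. ANKRD1, HBEGF and CSRP3 again did not overlap between the groups, with differences of 1.54, 0.84 and 0.28 on the log2 scale (exact permutation test, two-sided, p = 0.1 for each, the smallest possible). NPPB differed by 1.10 (exact permutation test, p = 0.2) and ACTA1 by 0.04 (exact permutation test, p = 0.9). These ratios depended on the marker chosen. Against TNNT2 alone, cardiac troponin T, the differences were 0.70 for NPPB, 1.14 for ANKRD1, 0.44 for HBEGF and -0.12 for CSRP3 (exact permutation tests, p = 0.3 to 0.7). Against ACTN2 alone, another marker of the panel, they were larger than with the panel. They came to 1.33 for NPPB, 1.77 for ANKRD1, 1.07 for HBEGF and 0.51 for CSRP3 (exact permutation tests, p = 0.1 to 0.2). TNNT2 itself was at 7845, 6754 and 6732 RPKM in hearts 6, 11 and 17 and at 4648, 7195 and 3854 RPKM in hearts 38, 48 and 42, with a log2 fold change of 0.49 (adjusted p = 0.543 from limma).

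Heart by heart, NPPB, ANKRD1, HBEGF and CSRP3 were the more closely correlated genes, and the place of ACTA1 beside them depended on single hearts. In RPKM, HBEGF and CSRP3 ordered the 6 hearts identically, from heart 17 through 11, 6, 48 and 42 down to 38. Pearson's r between them was 0.992 and Spearman's rho 1.00 on log2(RPKM + 1) over 6 hearts (exact permutation tests over 720 pairings, p = 0.00139 and 0.00278, adjusted over 10 pairs of genes 0.0139 and 0.0278). The identical order was lost with other scalings. With TPM, CSRP3 was higher in heart 48 than in heart 6 (1524 against 1514), while HBEGF was lower (5.94 against 7.37). With median-ratio scaling, CSRP3 was higher in heart 38 than in heart 42 (969 against 950), while HBEGF was lower (3.65 against 3.82). Spearman's rho was not computed with these scalings. Without hearts 17 and 38, the hearts farthest from the median of HBEGF, r over the remaining 4 hearts was 0.946. The other pairs among NPPB, ANKRD1, HBEGF and CSRP3 had r between 0.879 for NPPB with CSRP3 and 0.938 for ANKRD1 with HBEGF (exact permutation tests, each with an adjusted p of 0.0463). Their Spearman's rho ran from 0.657 to 0.829, and none passed by rank (exact permutation tests, adjusted p = 0.257 to 0.292). Without hearts 17 and 42, farthest from the median of NPPB or ANKRD1, r over 4 hearts was 0.483 for NPPB with ANKRD1, 0.642 for NPPB with HBEGF, 0.489 for NPPB with CSRP3, 0.790 for ANKRD1 with HBEGF and 0.616 for ANKRD1 with CSRP3. Without heart 17 alone r was 0.834 for NPPB with ANKRD1, 0.594 to 0.643 for the other 4 of these pairs, and 0.961 for HBEGF with CSRP3 (exact permutation tests over 5 hearts, adjusted p = 0.514, 0.514 and 0.167). With 5 hearts the adjusted threshold was also missed by all 6 pairs without heart 11, 48 or 42, at r of 0.875 to 0.999. Without heart 6 only NPPB with ANKRD1 and HBEGF with CSRP3 met it, and without heart 38 all 6 pairs did (exact permutation tests, adjusted p = 0.0278 to 0.0417). Calls were thus lost without several hearts, but fewer pairings exist with 5 hearts, which raises the smallest p that can be reached. HBEGF with CSRP3 missed the threshold without heart 48 at r of 0.999 (exact permutation test, adjusted p = 0.0833). For each of these pairs r was lowest without heart 17.

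ACTA1 correlated with the other genes at r of 0.479 to 0.633 and rho of 0.257 to 0.600 over 6 hearts, and no pair passed (exact permutation tests, adjusted p = 0.250 to 0.346 for r and 0.345 to 0.658 for rho). Without heart 17 its r was 0.273 with NPPB, -0.257 with ANKRD1, -0.105 with HBEGF and -0.245 with CSRP3. Without heart 6, where ACTA1 was lowest, it was 0.809 with NPPB, 0.780 with ANKRD1, 0.868 with HBEGF and 0.801 with CSRP3. Without hearts 17 and 42, farthest from the median of NPPB or ANKRD1, its r over 4 hearts was 0.745 with NPPB and -0.110 with ANKRD1. Without hearts 17 and 38, farthest from the median of HBEGF or CSRP3, it was -0.000566 with HBEGF and -0.177 with CSRP3. Heart 6 stayed in all of these values. In deviations from the group means, which take out the difference between OFT-banded and sham hearts, r was positive for all 10 pairs, from 0.535 to 0.984. Heart 17, the highest OFT-banded heart for every gene, enters each of these values, and they were not computed without it. Over all pairs of tested transcripts r was above 0 in 54.5% and above 0.8 in 9.04%, with a median of 0.0829. These pairs share the same 6 libraries, their depth and their composition, and hearts of both groups enter each r.

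**Figure D3:**
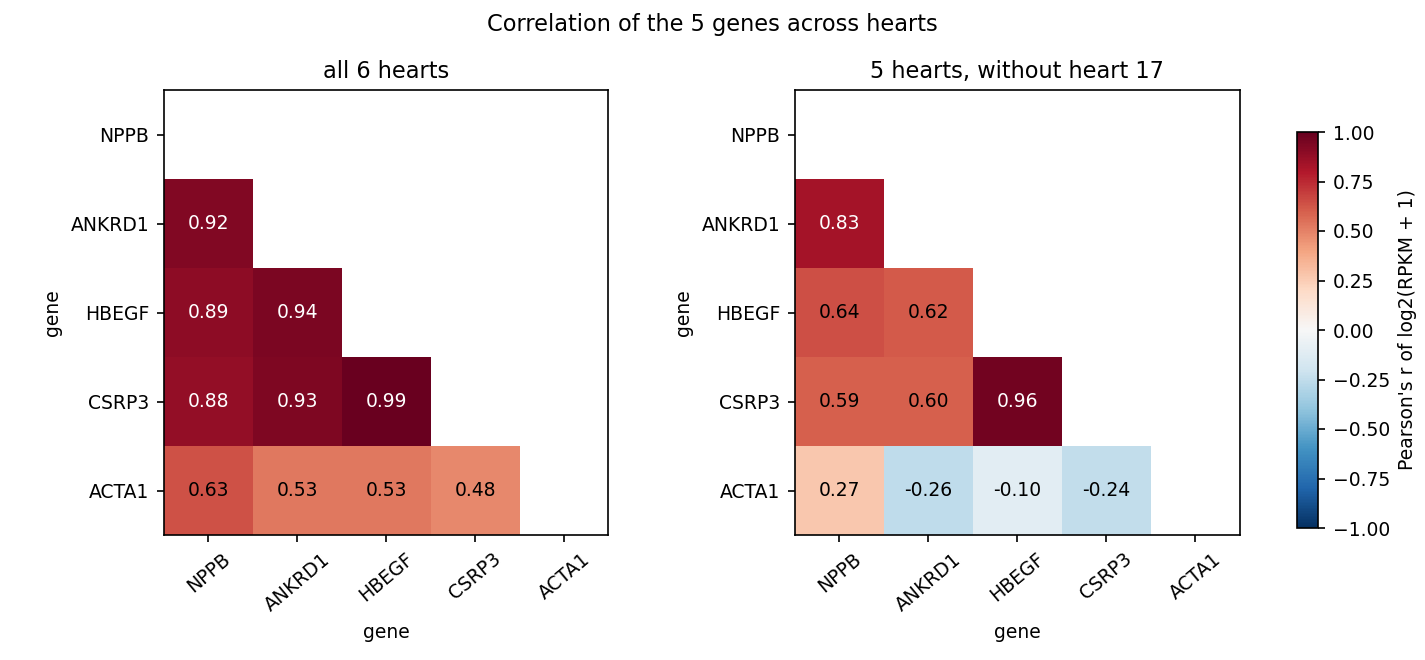
Pearson's r of log2(RPKM + 1) for each pair of the 5 genes, over all 6 hearts on the left and over 5 hearts without heart 17 on the right, from -1 in blue to 1 in red. HBEGF with CSRP3 stays at 0.96 without heart 17, while the r of ACTA1 with ANKRD1, HBEGF and CSRP3 goes from about 0.5 to below 0.

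The transcripts whose pattern over the 6 hearts was most like each gene were found by Pearson's r on log2(RPKM + 1) among 3964 others with a mean of at least 5 RPKM. Closest to NPPB were ACTC1 (r = 0.994), NPPC, C-type natriuretic peptide (0.990), and SDC2, the heparan sulphate proteoglycan syndecan-2 (0.979). Closest to ANKRD1 were HSP25, a small heat shock protein (0.991), RCAN1, an inhibitor of calcineurin (0.985), and CYR61, a matricellular protein and known target of YAP (0.983). HBEGF and CSRP3 were nearest to one another, and both had PGM1, phosphoglucomutase, among the closest transcripts (0.97455 and 0.987), next to RCAN1 for HBEGF (0.977) and IFRD1 for CSRP3 (0.987). Closest to ACTA1 were IDH3A, a subunit of mitochondrial isocitrate dehydrogenase (0.986), ALG12 (0.9745) and RFK, riboflavin kinase (0.970). With 6 hearts and this many transcripts such values are a description only. Between 6 and 14 transcripts exceeded an r of 0.95 with each gene.

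Of the other natriuretic genes in the list, NPPC and FURIN were found. NPPC was at 5.04, 12.9 and 20.02 RPKM in hearts 6, 11 and 17 and at 5.70, 4.89 and 2.57 RPKM in hearts 38, 48 and 42. As for NPPB, hearts 11 and 17 were above the sham hearts and heart 6 was not. Its log2 fold change was 1.22 with a standard error of 0.46 (limma, adjusted p = 0.543, unadjusted p = 0.0334) and 0.82 without heart 17. FURIN, a protease that can process natriuretic peptide precursors, was at 11.9 ± 0.295 RPKM in OFT-banded and 14.5 ± 3.54 RPKM in sham hearts (SD, n = 3 each; adjusted p = 0.610 from limma).

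The immediate early genes and the targets of SRF and YAP-TEAD were the list with the highest share of genes topped by heart 17 among those of more than 2 tested genes. Of 13 tested transcripts of this list, heart 17 was the highest of the 6 hearts in 8 (61.5%), against 10.4% of all tested transcripts, and at least 1 above the next heart on the log2 scale in 4, against 0.19%. CYR61 was at 51.7, 51.0 and 266 RPKM in hearts 6, 11 and 17 and at 47.2, 39.9 and 37.7 RPKM in hearts 38, 48 and 42. CTGF, its relative in the CCN family and likewise a YAP target, was at 82.7, 75.3 and 229 RPKM against 59.7, 56.7 and 59.4 RPKM. Both lay above all sham hearts in every OFT-banded heart, with log2 fold changes of 1.09 and 0.93 (adjusted p = 0.558 and 0.543 from limma), which became 0.30 and 0.42 without heart 17.

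The transcription factors EGR1, FOS and JUN, induced within minutes by many stimuli, are given here because of their values. EGR1 was at 35.4 RPKM in heart 17 and between 8.87 and 14.98 RPKM in the other hearts. FOS was at 10.2 RPKM in heart 17 and between 2.62 and 4.13 RPKM elsewhere, and JUN at 178 against 91.1 to 116 RPKM. Heart 6 and heart 11 lay within or below the range of the sham hearts in these genes, except for EGR1 in heart 11, which was just above it, and without heart 17 the log2 fold changes of EGR1, FOS and JUN were -0.07, -0.20 and -0.16, against 0.44, 0.32 and 0.12 with all hearts. Heart 17 had no such step in TEAD1 or YAP1. TEAD1 was at 2.22, 5.44 and 6.80 RPKM in hearts 6, 11 and 17 and at 3.40, 8.06 and 6.23 RPKM in hearts 38, 48 and 42 (log2 fold change -0.28, adjusted p = 0.771 from limma), and the estimate was 0.41 once red cell marker level entered as a covariate. That covariate, the mean log2 level of the markers, was 4.82 to 5.91 in OFT-banded and 5.48 to 7.21 in sham hearts. It thus went partly with the group, and estimates with it cannot fully part the 2. YAP1 was at 8.61, 23.1 and 22.9 RPKM against 16.2, 32.0 and 37.5 RPKM. Over the whole list 8 of 13 transcripts were higher and 5 lower by value, none passed the adjusted threshold, and CTGF alone had an unadjusted p under 0.05 (0.0467).

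**Figure D4:**
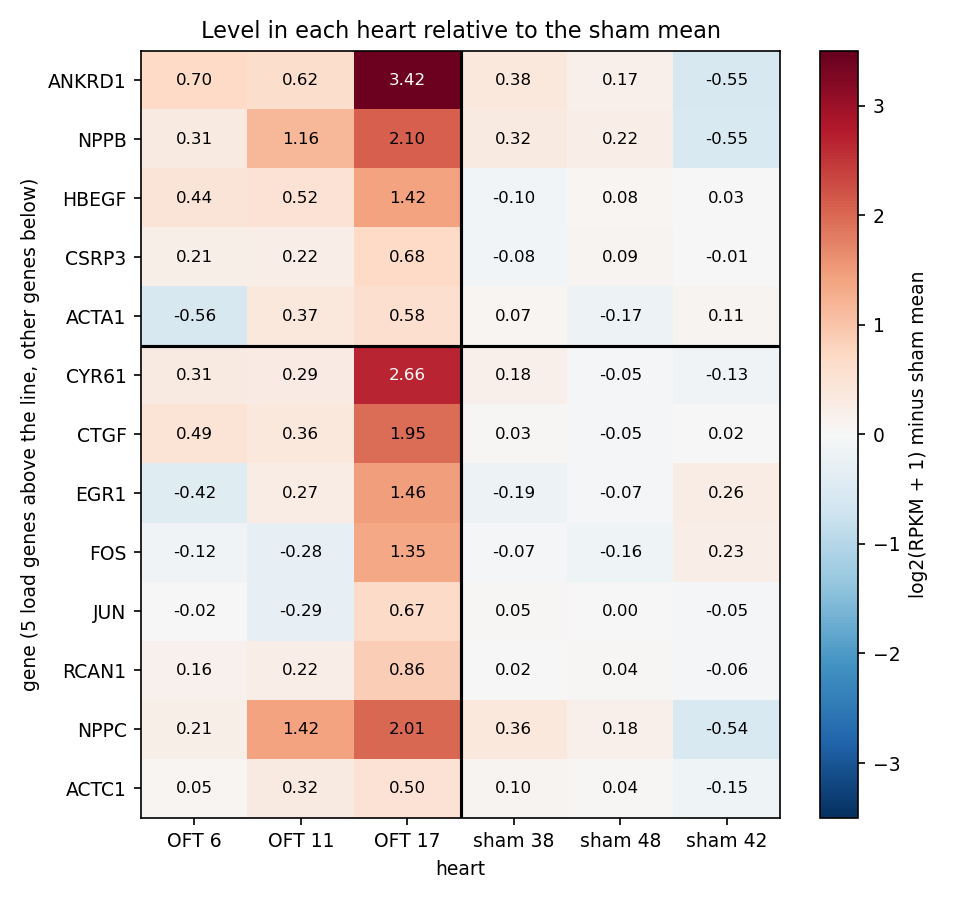
Level of the 5 genes (above the line) and of 8 genes described beside them (below it) in each heart, as log2(RPKM + 1) minus the mean of the 3 sham hearts, in red where higher and blue where lower. In heart 17 ANKRD1 is 3.42, CYR61 2.66, NPPB 2.10 above the sham mean, while in heart 6 these genes are between 0.312 and 0.701 above it and ACTA1 is 0.56 below it.

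Around HBEGF, 13 ligands, receptors and sheddases of the EGF family were tested. By value 5 were higher and 8 lower, with a median log2 fold change of -0.16, and over all tested transcripts 36.8% were higher. In 4 of them all OFT-banded hearts were below all sham hearts, against 11.0% of tested transcripts, and these were the receptor ERBB2 and the metalloproteases ADAM9, ADAM10 and ADAM17. ADAM17 was at 40.03, 42.4 and 41.6 RPKM in hearts 6, 11 and 17 and at 47.9, 49.5 and 42.9 RPKM in hearts 38, 48 and 42, and ADAM10 was at 56.7, 70.0 and 69.7 against 74.3, 73.1 and 81.4 RPKM. The log2 fold changes were small, at -0.17 for ADAM9 and ADAM17, -0.22 for ADAM10 and -0.30 for ERBB2 (adjusted p of 0.543 to 0.548 from limma). They stayed below 0 for these 4 genes under median-ratio scaling and with TPM, and with either scaling the groups were apart, with OFT-banded lower, in 3 genes of the list, against 7.68% and 11.4% of all tested transcripts. With the red cell covariate the log2 fold changes were -0.07 for ADAM9, -0.09 for ADAM10, -0.22 for ADAM17 and -0.08 for ERBB2. The receptor EGFR was low in all hearts, at 1.83 ± 0.448 RPKM in OFT-banded and 2.18 ± 0.571 RPKM in sham hearts (SD over 3 hearts each). Its log2 fold change was -0.17 (adjusted p = 0.756 from limma), and 0.12 with the red cell covariate.

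Other Z-disc and stretch-sensing genes were split in direction. Of 14 tested transcripts 7 were higher and 7 lower in OFT-banded hearts, with a median log2 fold change of 0.01, no unadjusted p under 0.05 and overlapping groups in each. The smallest p belonged to SMPX, a small muscle protein, at 375 ± 53.9 against 298 ± 60.4 RPKM, and CRYAB, a small heat shock protein of the sarcomere, at 5.02 ± 0.632 against 3.85 ± 0.851 RPKM (SD, n = 3 each; log2 fold changes 0.34 and 0.32, adjusted p = 0.543 and 0.564 from limma). The paralogues of CSRP3, CSRP1 and CSRP2, were at 264 to 291 RPKM and 113 to 158 RPKM over the 6 hearts, with the groups overlapping. Heart 17 was the highest heart in 6 of the 14 genes (42.9%), against 10.4% of all tested transcripts.

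Among 13 actins and cardiac contractile genes, 9 were higher by value and none had an unadjusted p under 0.05 or separate groups. TNNT2 and ACTC1 had the smallest p, with log2 fold changes of 0.49 and 0.29. Of 14 secreted and calcineurin-linked genes 8 were higher and 6 lower. RCAN1 was at 59.6, 62.4 and 97.8 RPKM in hearts 6, 11 and 17 and at 54.0, 54.9 and 51.2 RPKM in hearts 38, 48 and 42. The groups did not overlap in RPKM but did with TPM. Its log2 fold change was 0.41 (unadjusted p = 0.0589, adjusted p = 0.543 from limma) and 0.19 without heart 17. EDNRA, a receptor for endothelin, was lower in every OFT-banded heart than in any sham heart, at 90.7 ± 9.48 against 112 ± 12.5 RPKM (SD over 3 hearts each). The difference was -0.31 on the log2 scale (limma, adjusted p = 0.543, unadjusted p = 0.0340). The gap was narrow, with heart 11 at 97.8 RPKM and heart 38 at 98.6 RPKM, and with TPM the groups overlapped. With the red cell covariate the log2 fold change of EDNRA was -0.14. SPP1, osteopontin, was low, at 2.00 to 2.60 RPKM in OFT-banded and 0.88 to 1.97 RPKM in sham hearts, and did not overlap. Over all 69 tested transcripts of these lists together, the groups did not overlap in 4 with OFT-banded higher (CYR61, CTGF, RCAN1 and SPP1) and 5 with OFT-banded lower (EDNRA and the 4 genes of the EGF family), against 5.23% and 11.0% of all tested transcripts. None of the 69 passed the adjusted threshold. Heart 17 was highest in 25 of them (36.2%), against 10.4% of all tested transcripts.

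Markers of other cell types were followed beside these values. Of the 6 tested smooth muscle markers 4 had a higher mean log2 level after banding and 3 had an unadjusted p under 0.05 (CALD1, MYLK and TAGLN), against 3.28% of all tested transcripts, with heart 17 highest in 3, against 10.4%. MYH11, the smooth muscle myosin, and ACTG2 had lower means. The summed level of that list overlapped between groups, at 852 to 1181 RPKM in OFT-banded and 777 to 1571 RPKM in sham hearts. Summed endothelial markers were at 137 to 178 against 162 to 210 RPKM, fibroblast and epicardial markers at 840 to 1195 against 823 to 1205 RPKM, and white cell markers at 30.0 to 37.5 against 34.6 to 36.2 RPKM. The part of smooth muscle and red cell RNA in the values of the 5 genes was not tested beyond the red cell covariate, with which the log2 fold changes were 1.32 for NPPB, 1.97 for ANKRD1, 1.13 for HBEGF, 0.55 for CSRP3 and 0.44 for ACTA1, with none passing (adjusted p = 0.697 or more from limma). Standard errors were larger for all 5 with the covariate, such as 0.60 against 0.44 for NPPB and 0.97 against 0.73 for ANKRD1.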

How the data were processed

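Per the labels and the study's methods, the authors trimmed paired reads of 6 strand-specific, globin-depleted, polyA-selected libraries with scythe and sickle, aligned them with TopHat to galGal4, counted unique alignments with HTSeq and deposited RPKM per RefSeq transcript and heart. Tool versions are not given in the sources used here. Columns name the group but not the numbered sample, so hearts were used as replicates of their group. Per the methods, RNA of both groups was prepared in parallel. They also report that the sequenced RNA was partly degraded, through repeated freezing and thawing and the globin depletion. Integrity values for single hearts are not given in the sources used here.

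RPKM was taken as log2(RPKM + 1), where fold changes of low genes are understated. OFT-banded and sham hearts were compared over the 4726 transcripts with a mean of at least 1 RPKM with limma 3.58.1 in R 4.3.3 (intensity trend, Benjamini-Hochberg adjustment). The procedure was also run on simulated data with independent noise for each transcript. That run held no correlation between transcripts and no step in a single heart, so it does not cover such patterns. No count test was run, since a read's worth in RPKM depends on transcript lengths that the deposited table lacks. Permutation tests, correlations and depth steps (whole within 0.1 read, halved in hearts 11 and 42 where nearly all were even, with microRNA lengths from the GRCg7b annotation) used Python 3.11.15, numpy 2.4.6, pandas 2.3.3 and scipy 1.17.1. The genes and lists were chosen with earlier results of these data known. Of 129 symbols in the lists, 75 were matched. Genes named were the 5, the 2 others with the smallest p of each list, ACTC1, EGFR and TEAD1, and the 3 nearest by pattern. SPP1, YAP1, EGR1, FOS, JUN, CSRP1, CSRP2, ADAM9, ADAM17, MYLK, PDLIM3, HABP2 and the cell type markers named were added after their values were seen. NPPA was looked up as well, but no row carried that symbol. No sequence is printed, since none was at hand.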

Additional observations from a re-analysis of the deposited data

How the results depend on the processing

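For the 5 genes, 75 log2 fold changes were computed under other settings (pseudocount 0.1, no filter, a mean of at least 5 RPKM, TPM, median-ratio scaling, globin rows left out, no intensity trend, robust moderation, a red cell covariate and each heart left out), and 74 kept their direction and stayed above the adjusted threshold (adjusted p = 0.345 to 1.0 from limma). ACTA1 turned to -0.10 without heart 17. Leaving out each heart in turn gave 0.73 to 1.63 for NPPB, 0.66 to 2.06 for ANKRD1, 0.48 to 0.97 for HBEGF, 0.22 to 0.45 for CSRP3 and -0.10 to 0.47 for ACTA1. Per cardiomyocyte panel, CSRP3 and ACTA1 turned to -0.12 and -0.36 with TNNT2 alone and came to 0.51 and 0.27 with ACTN2 alone. Against the whole panel, ACTA1 ran from -0.16 to 0.35 with single hearts left out. ACTA1 to ACTC1 ran from -0.28 to 0.065, the latter without heart 6. The count of the 5 genes with no overlap and OFT-banded higher was 3, 2 with TPM, 4 with median-ratio scaling and 3 to 5 without single hearts, the last added after the data were seen. For the genes of the lists it was 4, 4, 7 and 4 to 14. The 4 with TPM were not the same genes, since RCAN1 overlapped there. Over all tested transcripts the share was 5.23%, 4.46%, 7.79% and 6.9% to 12.2%. Of 80 alternative values of r, 3 reversed, all without heart 17. With ACTA1, r ran from -0.257 to 0.780 for ANKRD1, -0.105 to 0.868 for HBEGF and -0.245 to 0.801 for CSRP3, lowest without heart 17 and highest without heart 6. A further 28 lost the adjusted threshold, all with 5 hearts, where fewer pairings exist. Median log2 fold change over all transcripts was -0.07, -0.10 with TPM and -0.006 with median-ratio scaling. No paired analysis was possible because the columns carry numbers that are not the replicate numbers of the titles. HBEGF has the fewest reads, and 3 hearts per group limit every comparison.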

Other observations

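Counting the genes above, 9 of 4726 tested transcripts were at least 1 higher in heart 17 than in any other heart on the log2(RPKM + 1) scale. The count was 1 each for hearts 6 and 11, none for hearts 38 and 48, and 10 for heart 42. Those of heart 17 were ANKRD1, CYR61, CTGF, EGR1 and FOS, together with HSP25, MYLK, PDLIM3 and HABP2. HSP25, a small heat shock protein, was at 222 RPKM in heart 17 and between 51.3 and 91 RPKM in the other hearts. MYLK, myosin light chain kinase, was at 31.5 against 7.98 to 13.9 RPKM, and PDLIM3, a PDZ and LIM domain protein of the Z-disc, at 31.3 against 4.54 to 14.7 RPKM. HABP2 was at 10.4 against 3.46 to 4.60 RPKM. NPPB and HBEGF came 11th and 12th by the size of this step, CSRP3 42nd and ACTA1 120th. These transcripts were picked for their values in heart 17, so the steps are a description of that library and carry no test.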
